A study of Mus musculus with 8 samples.

Results

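Of the 122086 different 60-base sequences on the array that carry the common 3′ end, 550 hold no dipyrimidine step at all. They were chosen by sequence alone. In each of them no 2 adjacent bases are both pyrimidines and no 2 adjacent bases are both purines, so pyrimidines and purines alternate over all 60 bases, and the same is true of the complementary strand. The study stained a universal DNA microarray with mouse antibodies against UV lesions. An antibody against cyclobutane pyrimidine dimers (CPDs), diluted 1:400, and an antibody against 6-4 photoproducts (6-4PPs), diluted 1:80, were each measured on 2 arrays treated with UV and 2 arrays without UV. The 8 arrays therefore form 4 groups, and every group holds the same set of printed sequences. The organism given for the samples is that of the antibodies, and no cells were involved. The UV dose is not given here, nor whether the printed strand was made double-stranded.

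A CPD joins 2 neighbouring pyrimidines of the same strand through a four-membered ring. A 6-4PP joins the same neighbours through a single bond and forms most readily at TT and TC. A strictly alternating sequence offers neither strand a pair of adjacent pyrimidines, so these sequences show what each antibody reads on UV-treated DNA where the textbook substrate is missing. Thymine followed by adenine can itself form a minor UV photoproduct, which makes the TA step the one of the alternating steps with a described lesion of its own.

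The members differ only in their first 25 bases, because the last 35 are identical in all of them. This shared end is shown because a TA or CG within it is carried by every member and cannot tell members apart.
shared 3′ end: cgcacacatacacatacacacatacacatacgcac
The member with the most TA steps in its variable part is given with those steps in capitals, and the member that comes first among those with the most CG steps with these in capitals.
most TA steps: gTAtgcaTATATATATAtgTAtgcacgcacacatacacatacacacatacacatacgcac
most CG steps: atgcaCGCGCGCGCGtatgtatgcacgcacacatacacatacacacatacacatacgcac
A further set comes from a design in which neighbouring bases of a starting sequence were replaced. The capitals mark the replaced positions, 8 and 9 from the 5′ end, and the sequences are otherwise the same. The first of them is the starting sequence.
CG at positions 8 and 9: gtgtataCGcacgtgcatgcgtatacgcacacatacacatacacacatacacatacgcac
TA at positions 8 and 9: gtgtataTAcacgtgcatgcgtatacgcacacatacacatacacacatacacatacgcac
CA at positions 8 and 9: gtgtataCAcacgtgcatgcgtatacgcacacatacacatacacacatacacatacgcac
TG at positions 8 and 9: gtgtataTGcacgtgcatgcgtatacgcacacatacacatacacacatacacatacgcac

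Base 25 of a member is always A or G, so each variable part holds 12 pyrimidine-purine steps (TA, CG, CA or TG) and the members differ in how these are shared out. The number of TA steps ran from 1 to 7 with a median of 4. The number of CG steps ran from 0 to 5 with a median of 2. CA steps numbered 0 to 6 and TG steps 2 to 7. The shared end adds 4 TA, 2 CG and 11 CA steps to every member. A G opened 487 of the sequences and an A the other 63. Members overlap heavily: 545 of the 550 share a stretch of at least 15 bases of the variable part with another member, and they are not independent sequences. By their names, 393 belong to the set that covers all 8-mers, 88 to the base-replacement design, 76 to Myc, 50 to EGR and 12 to E2F designs, with some members in more than 1 set.

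The 550 members were printed on 3527 spots, but unevenly. A single spot carried 229 of them, 108 had 2 spots, and 176 had at least 10 spots, which together make up 2879 spots. The most printed members had 110 spots. The values are fluorescence intensities of the secondary dye after the neighbourhood adjustment found in the deposited files, averaged over the spots of a sequence on the log2 scale. No depth applies to arrays, and precision is limited by the number of arrays. The labels do not say that the 2 arrays of a group were separate experiments, so p-values measure the spread between these arrays, which may be technical.

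Same-numbered arrays of the 2 antibodies were not independent of each other. Counting member spots that were more than 2-fold brighter than the median of the members, non-UV array 1 had 22 with the CPD antibody and 37 with the 6-4PP antibody, and 19 were the same spots. Non-UV array 2 had 46 and 81 with 37 in common. UV array 1 had 29 and 50 with 20 in common, and UV array 2 had 32 and 31 with 23 in common. Every other pair of arrays shared 0 or 1 such spots. For the 2879 spots of members with at least 10 spots, the deviation of a spot from its own sequence's median was compared between arrays. Same-numbered arrays of the 2 antibodies gave Pearson's r of 0.79, 0.76, 0.64 and 0.83, and these points share their array position. Spearman's rho for these pairs was 0.28, 0.39, 0.51 and 0.57. Between the 2 UV arrays of an antibody, r was 0.16 for each and rho was 0.51 for CPD and 0.41 for 6-4PP. Between the 2 non-UV arrays rho was -0.0085 and 0.0044. Spot deviations thus recurred in rank on the 2 UV arrays of an antibody as well. The labels do not say whether the same slides were stained with both antibodies. A result seen with both antibodies is therefore not counted here as seen independently.

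After UV, staining of the members rose with both antibodies, and by nearly the same small factor. With the CPD antibody their median adjusted intensity was 1219 and 1048 on the non-UV arrays and 1617 and 1603 on the UV arrays. The 2 UV arrays were each above the 2 non-UV arrays. The median of the log2 values rose by 0.51 (SE 0.11, n = 2 arrays against 2), which is 1.42-fold. With the 6-4PP antibody the member medians were 1497 and 1246 without UV and 1954 and 1951 with UV. Here too the groups did not overlap, and the rise was 0.52 on the log2 scale (SE 0.13, n = 2 against 2), or 1.43-fold. Permuting the arrays exactly (two-sided) returned p = 0.33 with each antibody, the smallest value that 2 arrays against 2 allow. Before the neighbourhood adjustment the rises were 0.45 for CPD and 0.47 for 6-4PP.

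These rises were small beside those of the array as a whole. The median over all 122086 sequences rose by 1.65 on the log2 scale (SE 0.14) with the CPD antibody, from 1231 and 1042 to 3733 and 3388. With the 6-4PP antibody it rose by 2.28 (SE 0.15), from 1511 and 1231 to 6629 and 6624. Without UV the members stained like the rest of the array, at 1219 against 1231 and 1048 against 1042 for CPD and at 1497 against 1511 and 1246 against 1231 for 6-4PP. On the UV arrays the members were at 1617 against 3733 and 1603 against 3388 for CPD, and at 1954 against 6629 and 1951 against 6624 for 6-4PP. Centred on the array median, the members therefore changed sign: in limma, 534 of 550 were lower with CPD and 544 with 6-4PP, and 0 were higher with either antibody. Among all sequences, 40.2% were lower and 39.5% higher with CPD, and 39.9% lower and 36.4% higher with 6-4PP.

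A further reference is the 160 spots with no sequence, name or ID in the files, and what these unlabelled spots carry is not known here. With the CPD antibody their median intensity was 875 and 809 without UV and 907 and 966 with UV, a log2 rise of 0.15 (SE 0.072). On unadjusted intensities the rise was 0.095 and the groups overlapped. With the 6-4PP antibody these spots read 558 and 563 without UV and 707 and 717 with UV, a rise of 0.35 (SE 0.012). The members lay above these spots on every array. Their median minus that of the unlabelled spots was 344 and 239 without UV and 710 and 637 with UV for CPD, 2.31-fold higher in the mean after UV. For 6-4PP it was 939 and 683 without UV and 1247 and 1235 with UV, or 1.53-fold higher. Expressed as a log2 ratio over the unlabelled spots, the members gained 0.36 (SE 0.074) with CPD and 0.17 (SE 0.14) with 6-4PP. The UV and non-UV arrays did not overlap in either ratio, with exact permutation p = 0.33, the smallest possible.

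The larger set of all 5014 spots without a printed sequence gave a different picture, because 4854 of them are named control spots whose DNA is not listed in the files. Their median rose from 1058 and 981 to 4980 and 4272 with CPD and from 861 and 806 to 11266 and 9978 with 6-4PP. Set against these spots, the members changed by -1.67 on the log2 scale with CPD (SE 0.12) and by -3.15 with 6-4PP (SE 0.12). The 160 unlabelled spots were singled out after the values of both sets had been seen.

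Tested sequence by sequence with limma over all 122086 sequences, 391 of the 550 members rose with the CPD antibody at an adjusted p under 0.05 and 0 fell. That is 71.1% of the members, against a background of 92.0% of all sequences higher and 0.00164% lower. With the 6-4PP antibody 371 members (67.5%) rose and 0 fell, against 96.0% higher and 0.00164% lower among all sequences. At an unadjusted p under 0.05 the same limma fit gave 397 and 375 members higher and 0 lower. Every adjusted call also passes this wider threshold, so at least 92.0% and 96.0% of all sequences were higher at it. The median rise of a member was 0.51 for CPD and 0.50 for 6-4PP, with a median standard error of 0.18. The middle 90% of members lay between 0.19 and 0.80 for CPD and between 0.15 and 0.81 for 6-4PP. The value was above 0 in 539 members for CPD and 532 for 6-4PP. The 2 UV arrays were each above the 2 non-UV arrays in 510 members for CPD, where 97.4% of all sequences did so. For 6-4PP this held in 498 members, where the share over all sequences was 97.8%.

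The counts depended on single arrays. Leaving out CPD non-UV array 2 lowered the count of members that rose with CPD from 391 to 82, leaving out UV array 1 to 135 and UV array 2 to 147. In these fits 79.6%, 82.6% and 84.5% of all sequences were still higher. For 6-4PP the count fell from 371 to 156 without non-UV array 2, to 160 without UV array 1 and to 155 without UV array 2, where 93.0%, 92.6% and 92.4% of all sequences were higher. The array left alone in its group was taken to vary as the others do. Members printed often were called more often, but still less often than all sequences. Of the 176 members with at least 10 spots, 148 (84.1%) rose with CPD and 141 (80.1%) with 6-4PP in the limma fit. The shares over all sequences were 92.0% and 96.0%. The value of all 176 members was above 0 with both antibodies. Their rises were also closer together, with the middle 90% between 0.30 and 0.66 for CPD and between 0.31 and 0.68 for 6-4PP. Among the 229 members with 1 spot, 143 (62.4%) rose with CPD and 129 (56.3%) with 6-4PP, against the same shares over all sequences.

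No member passed the test of a difference between the 2 antibodies. In the limma contrast of the 2 rises 0 of 550 members differed at an adjusted p under 0.05, while among all sequences 6.57% rose more with CPD and 27.9% more with 6-4PP. At an unadjusted p under 0.05 in this contrast, 2 members had a larger rise with CPD and 0 with 6-4PP. Adjusted calls also pass this wider threshold, so at least 6.57% and 27.9% of all sequences did so. The median difference, CPD minus 6-4PP, was -0.0011 on the log2 scale with a median standard error of 0.26. In the 176 members with at least 10 spots the middle 90% of the differences lay between -0.14 and 0.17. With same-numbered arrays of both antibodies entered as a random block (consensus correlation 0.69), an analysis chosen after the shared bright spots were seen, 10 members (1.82%) rose more with CPD and 7 (1.27%) more with 6-4PP, where 14.4% and 44.7% of all sequences did so.

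The best measured members are the 4 starting sequences of the base-replacement design, each on 110 spots, and these were singled out after the data were seen. The sequence with CG at positions 8 and 9 printed above had median spot intensities with CPD of 1216 and 1039 without UV and 1542 and 1551 with UV. The quartiles over its 110 spots were 1142 and 1290 on non-UV array 1 and 1410 and 1676 on UV array 1, so the central spots of these arrays did not overlap. With 6-4PP its medians were 1470 and 1252 without UV and 1772 and 1857 with UV. In the limma fit this sequence rose by 0.42 with CPD (adjusted p = 0.036) and by 0.40 with 6-4PP (adjusted p = 0.041). The other starting sequences rose by 0.42, 0.48 and 0.52 with CPD, and by 0.33, 0.52 and 0.47 with 6-4PP. The one with a 6-4PP rise of 0.33 did not pass the threshold for that antibody (limma adjusted p = 0.061).

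Probes with a lone dipyrimidine step are the sequences most like the members, and 3825 carry exactly 1 step on either strand. Before UV the members and these probes stained alike, with a log2 difference between -0.016 and 0.012 on the 4 non-UV arrays. After UV the members were lower by 0.19 and 0.18 with CPD and by 0.24 and 0.27 with 6-4PP, read as log2 values of -0.19, -0.18, -0.24 and -0.27. The UV-minus-non-UV difference was -0.19 for CPD (SE 0.010) and -0.25 for 6-4PP (SE 0.017), and the arrays of the 2 conditions did not overlap (exact permutation p = 0.33, the smallest possible).

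The gap was set by which step the probe carried. A lone TT on the printed strand, the main CPD substrate, took the median CPD intensity to 9048 and 8153 after UV, where the members stood at 1617 and 1603. Relative to the members it gained 2.43 on the log2 scale with CPD (SE 0.069). A lone CC on the printed strand stood at 1679 and 1671 with CPD, only slightly above the members, and its gain was 0.052 (SE 0.013). Lone TC and CT gained 0.15 and 0.28 with CPD. With 6-4PP a lone TT gained 1.95 over the members (SE 0.042) and a lone TC 1.20 (SE 0.011), both of them favoured 6-4PP sites, while CT gained 0.31 and CC 0.10. Steps on the complementary strand gained less: for TT 1.01 with CPD and 0.68 with 6-4PP, for TC 0.067 and 0.61, for CT 0.12 and 0.061 and for CC 0.034 and 0.058. The lone CC and, for 6-4PP, the complement CT thus lay nearest to the members. In each of the 16 comparisons both UV arrays exceeded both non-UV arrays, with exact permutation p = 0.33.

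The number of TA steps went with small differences whose separation of UV from non-UV arrays depended on the fit. With CPD the median rise was 0.49 in the 60 members with 2 TA steps, 0.50 in the 183 with 3, 0.50 in the 196 with 4, 0.54 in the 88 with 5 and 0.54 in the 19 with 6. With 6-4PP the same classes had medians of 0.51, 0.52, 0.47, 0.47 and 0.56. A least-squares fit over the 550 members of each array, with the numbers of TA and CG steps as terms and CA and TG as the reference, gave TA slopes with CPD of -0.0022 and 0.0044 log2 units per step after UV, and of -0.014 and 0.00086 without UV. The UV and non-UV arrays overlapped. The difference was 0.0077 per step (SE 0.0082; exact permutation p = 0.667). With 6-4PP the TA slopes were 0.0038 and -0.0057 after UV and 0.014 and 0.0021 without UV, overlapping again, with a difference of -0.0089 (SE 0.0076; exact permutation p = 0.667). With AT steps as a further term the conditions did not overlap, at 0.011 (SE 0.0055) for CPD and -0.015 (SE 0.011) for 6-4PP. They also did not overlap for 6-4PP with the median over spots, at -0.013 (SE 0.0051), and for CPD on a linear scale, at 0.061 (SE 0.037). For scale, a single TT on the printed strand added 2.43 with CPD.

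In the members with at least 5 spots, a subset added after seeing the data (n = 213), the TA difference with 6-4PP was -0.027 per step (SE 0.0091), with UV slopes of -0.012 and -0.020 below the non-UV slopes of 0.0032 and 0.019. The CPD difference in the same members was 0.0040 (SE 0.0061) and the arrays overlapped. The member with the most TA steps, shown above with 7, was printed once. Its CPD intensities were 1257 and 992 without UV and 1428 and 1556 with UV. Its 6-4PP intensities were 1628 and 1323 without UV and 4176 and 2217 with UV, so the 2 UV arrays disagreed on its level. In the limma fit its rise was 0.42 with CPD (adjusted p = 0.19) and 1.05 with 6-4PP (adjusted p = 0.0061). A member with 6 TA steps and 10 spots rose by 0.49 and 0.56 with CPD on the arrays numbered 1 and 2, and by 0.59 and 0.69 with 6-4PP (limma adjusted p = 0.013 and 0.0043).

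Members with more CG steps had a slightly smaller median rise with CPD. The median CPD rise was 0.53 in the 84 members with no CG step, 0.54 in the 171 with 1, 0.50 in the 172 with 2, 0.47 in the 89 with 3 and 0.44 in the 29 with 4. With 6-4PP the medians were 0.53, 0.51, 0.51, 0.45 and 0.50, which is not a steady fall. The 5 members with 5 CG steps had medians of 0.53 and 0.59 and did not continue it. The CG slope with CPD was -0.025 and -0.019 per step after UV and -0.0053 and 0.0084 without UV, so that the conditions did not overlap. The difference was -0.024 (SE 0.0074, n = 2 arrays against 2; exact permutation p = 0.33, the smallest possible). With 6-4PP the slopes were -0.031 and -0.031 after UV and -0.011 and -0.0062 without UV, a difference of -0.022 (SE 0.0026; exact permutation p = 0.33). Over all members, TA and CG counts together accounted for at most 2.36% of the variance of log2 level on any array. In the members with at least 5 spots (n = 213), a subset added after seeing the data, the share was larger after UV. It was 5.17% and 6.09% on the UV arrays with CPD and 4.44% and 9.21% with 6-4PP. On the non-UV arrays of these members it was 1.04% and 0.035% with CPD and 2.28% and 2.91% with 6-4PP. Over all members, the CG slopes of the 2 conditions overlapped for 6-4PP with AT steps as a further term, where the difference was -0.011. They also overlapped for CPD on a linear scale.

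The member with 5 CG steps shown above was printed on 15 spots. With CPD it read 1242 and 1107 without UV and 1542 and 1516 with UV, and with 6-4PP 1488 and 1251 without UV and 1912 and 1910 with UV. Its limma rise was 0.38 with CPD (adjusted p = 0.048) and 0.49 with 6-4PP (adjusted p = 0.017), each below the member median. Of the other members with 5 CG steps, the 2 on single spots had rises of 0.64 and 0.53 with CPD and 0.55 and 0.79 with 6-4PP. The one on 16 spots had 0.55 and 0.59, and the one on 10 spots had 0.43 with CPD, below the member median, and 0.59 with 6-4PP.

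The purine-pyrimidine steps were fitted on their own, with AC and GT as the reference. Each AT step went with a UV gain of 0.012 in CPD staining (SE 0.0069) and 0.018 in 6-4PP staining (SE 0.0055), without overlap of the conditions in either. Each GC step went with -0.028 (SE 0.010) for CPD without overlap, and with -0.0035 (SE 0.016) for 6-4PP with overlap. Counts of AT and GC follow largely from those of TA and CG in these sequences, and the pairs of fits are not separate evidence.

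The base-replacement design compares steps at a fixed position of a fixed sequence, and each variant has at least 10 spots. Replacing the named bases also changes the steps on either side of them. A contrast can therefore not be assigned to the named step alone. It was identified from the probe names after the data were seen. All of its 4 starting sequences are members. The 4 pyrimidine-purine steps can be compared at 24 sites and the 4 purine-pyrimidine steps at 16 sites. Variants at neighbouring sites can be the same sequence, and each starting sequence serves as a variant at every site replaced in it. The sites are therefore not separate measurements. At the site printed above, the TA variant had CPD intensities of 1231 and 1048 without UV and 1526 and 1499 with UV. The CG variant, which is the starting sequence, had 1245 and 1081 without UV and 1544 and 1562 with UV. The CA variant had 1211 and 1093 without UV and 1598 and 1545 with UV, and the TG variant had 1285 and 1223 without and 1707 and 1681 with UV. Their CPD rises of 0.41, 0.42, 0.45 and 0.43 were within 0.04 of each other. With 6-4PP the rises of the TA, CG, CA and TG variants were 0.31, 0.40, 0.44 and 0.34.

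With the steps read on the printed strand, the mean CPD rise over the 24 sites was 0.49 for TA, 0.48 for CG, 0.45 for CA and 0.49 for TG, and the mean 6-4PP rise was 0.43, 0.46, 0.46 and 0.43. TA exceeded CG in CPD rise at 13 of the 24 sites and in 6-4PP rise at 9. The TA-minus-CG difference changed after UV by 0.012 with CPD (SE 0.031) and by -0.030 with 6-4PP (SE 0.024), and the arrays overlapped in both. Against CA and TG at the same site, CG changed by 0.0054 with CPD (SE 0.039) and 0.014 with 6-4PP (SE 0.023), again with overlap. The negative CG slope over all members thus did not appear in this series, whose standard errors of 0.039 and 0.023 are as large as the slopes of -0.024 and -0.022 or larger. Against CA and TG, TA changed by 0.017 with CPD (SE 0.0096) and by -0.016 with 6-4PP (SE 0.010), without overlap of the conditions and with opposite signs. At the 16 purine-pyrimidine sites AT changed relative to GC by 0.044 with CPD (SE 0.013) and by -0.029 with 6-4PP (SE 0.0052), also without overlap. AT exceeded GC in CPD rise at 12 of the 16 sites and in 6-4PP rise at 8.

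Longer alternating words moved the rise little. Each word was searched on both strands of the variable part, and words that are reverse complements were merged. For the 20 alternating 4-mers, the median rise of the members that held the word lay between 0.016 below and 0.017 above that of all members with CPD, as signed differences -0.016 and 0.017. With 6-4PP the range was -0.036 to 0.011. TATA (179 members) was lowest with 6-4PP, at -0.036, and stood at -0.012 with CPD. CACA (246 members) was highest with CPD, at 0.017. The sign of the difference was the same on the arrays numbered 1 and 2 for 15 of 20 words with CPD and 13 of 20 with 6-4PP.

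Of 72 alternating 6-mers, 71 were held by at least 20 members, and their range was -0.073 to 0.045 with CPD and -0.088 to 0.036 with 6-4PP. The lowest with CPD were GCGCGC (36 members, -0.073), GTGCAC (21 members, -0.046), CGCGCG (34 members, -0.046) and CGCGCA (77 members, -0.045). GCGCGC was at -0.050 and -0.053 on the arrays numbered 1 and 2. The highest with CPD were ACATGC (84 members, 0.045), CATGTA (71 members, 0.045), ATGTAC (32 members, 0.044) and ATATAC (101 members, 0.039). With 6-4PP the lowest were GTATAC (38 members, -0.088), GTACAC (38 members, -0.060), TATACA (82 members, -0.050) and ACGTGC (131 members, -0.048). GTATAC was at -0.083 and -0.080 on the arrays numbered 1 and 2, whereas GTACAC was at -0.0081 and -0.043. The highest with 6-4PP were ATGCAT (183 members, 0.036), ACATGC (84 members, 0.033), TATATA (29 members, 0.028) and ATATAT (49 members, 0.028). TATATA had opposite signs on the arrays numbered 1 and 2, 0.039 and -0.019. Members that share a word overlap in sequence, so these are descriptions and no test was made.

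The largest rises on the arrays numbered 1 came from members with 1 or 2 spots and mostly did not recur at that size on the arrays numbered 2, which had no part in choosing them. The member with the largest CPD rise on array 1 is shown because it was also high with 6-4PP on that array, with its TA steps in capitals.
largest CPD rise on array 1: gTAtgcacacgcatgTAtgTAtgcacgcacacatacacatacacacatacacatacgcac
Its CPD intensities on 2 spots were 1145 and 1008 without UV and 8481 and 1824 with UV, so UV array 1 alone was high. The rise was 2.89 on array 1 and 0.86 on array 2. With 6-4PP it read 1425 and 1178 without UV and 10261 and 2035 with UV, a rise of 2.85 and 0.79. The 6 members with the largest CPD rise on array 1 had rises there of 1.02 to 2.89 and on array 2 of 0.26 to 2.11. The 6 with the largest 6-4PP rise on array 1 had rises of 1.58 to 4.91 there and of 0.19 to 0.96 on array 2.

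The largest 6-4PP value belonged to a single-spot member with 5 TA steps that read 1680 and 1107 without UV and 50367 and 2160 with UV. With CPD the same spot read 1272 and 1081 without UV and 1216 and 1344 with UV. Its 6-4PP rise was therefore 4.91 on array 1 and 0.96 on array 2. Some of the members chosen on array 1 had a high CPD rise on both arrays. Only the rise on array 2 is free of the choice, so no p-value is given for them. A 2-spot member with 4 TA steps and 1 CG step rose by 1.48 and 1.42, from 1181 and 1002 to 3301 and 2674. Its 6-4PP rise was 1.82 and 0.80. A single-spot member with 5 TA steps and 1 CG step rose by 1.05 and 2.11, from 976 and 1013 to 2016 and 4389. Its 6-4PP rise was 0.27 and 0.66. A single-spot member with 3 TA and 3 CG steps rose by 1.02 and 0.87 with CPD. The 3 smallest CPD rises on array 1 were -1.81, -0.37 and -0.36, and the same members rose by 0.75, 0.48 and 0.87 on array 2. The lowest of them read 5135 on non-UV array 1 and 1001 on non-UV array 2. The 3 smallest 6-4PP rises on array 1 were -3.32, -1.87 and -1.48, against 1.07, 0.59 and 0.82 on array 2. In these the high value was likewise on non-UV array 1, at 19629, 7468 and 5291.

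Restricted to members with at least 10 spots, a restriction added after seeing the data, the extremes were mild. The 3 largest CPD rises on array 1 were 0.92, 0.88 and 0.87, and the same members rose by 0.62, 0.64 and 0.59 on array 2. The 3 smallest were -0.18, -0.14 and -0.04, against 0.57, 0.53 and 0.56 on array 2. Over all 550 members, Spearman's rho between the rise on the arrays numbered 1 and 2 was 0.34 for CPD and 0.18 for 6-4PP. Over the 176 members with at least 10 spots, it was 0.15 for CPD and 0.13 for 6-4PP. Between antibodies, in the same 176 members, it was 0.58 on the arrays numbered 1 and 0.65 on the arrays numbered 2, but -0.055 and 0.11 when the numbers differed. The level after UV was steadier than the rise, with rho between the 2 UV arrays of 0.38 for CPD and 0.40 for 6-4PP, where the non-UV arrays gave -0.070 and 0.049. Deviations of single spots from their sequence's median also correlated between the 2 UV arrays, with rho of 0.51 for CPD and 0.41 for 6-4PP. The part of spot position in the rho of 0.38 and 0.40 was not tested. All correlations between members run over overlapping sequences on the same arrays and are descriptions.

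The spots of a single sequence scattered. Spread was taken as the median absolute deviation of a sequence's spots, scaled to a standard deviation. In the 176 members with at least 10 spots, its median on the UV arrays was 0.19 to 0.21 on the log2 scale. The standard deviation between sequence medians, each over at least 10 spots, was 0.080 to 0.094 on these arrays. On the non-UV arrays the spot spread was 0.088 to 0.17. The rank correlation between a spot's deviation in adjusted value and its neighbourhood median was -0.69, -0.69, -0.62 and -0.62 on the UV arrays. On the non-UV arrays it was 0.018 to 0.048. The adjusted value is divided by this same median, so a negative correlation is partly built in. It cannot show what the surroundings do to staining. On unadjusted intensities it was positive on all arrays, from 0.33 to 0.67. The part of the neighbourhood in the differences between members was not tested beyond the slopes. With the neighbourhood median as a further term the CG differences were -0.024 for CPD and -0.021 for 6-4PP, and the TA differences 0.0085 and -0.0068.

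By design family the median CPD rise ran from 0.47 to 0.52 and the median 6-4PP rise from 0.44 to 0.52. The 393 members of the 8-mer set rose by 0.52 with both antibodies, and the 76 members of the Myc set by 0.52 and 0.52. The 50 EGR members rose by 0.47 and 0.50, the 12 E2F members by 0.47 and 0.50, and the 88 members of the base-replacement design by 0.47 and 0.44. In the limma fit 66.9% of the 8-mer set, 88.2% of the Myc, 80.0% of the EGR, 9 of the 12 E2F and 80.7% of the base-replacement members rose with CPD, against 92.0% of all sequences. With 6-4PP the shares were 64.1%, 90.8%, 80.0%, 83.3% and 69.3%, against 96.0% of all sequences.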

How the data were processed

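The deposited files give, per the file headers, an Alexa 488 intensity for each of 180880 spots. The authors' adjusted intensity equals the scanner intensity times a constant of the array, divided by the median of the spot's neighbourhood. The sources used here do not name the software. Its log2 was averaged over the spots of a sequence, with no centring, because UV moved the array median. All 8 arrays entered 1 limma fit (lmFit, eBayes; limma 3.58.1, R 4.3.3), adjusted by Benjamini-Hochberg over 122086 sequences. Array summaries (Python 3.11.15, numpy 2.4.6, pandas 2.3.3) were compared with exact two-sided permutation tests, where 2 arrays against 2 cannot go below p = 0.33. Scripts were tested on simulated data. Named members are, per antibody, the 6 largest and 3 smallest rises on the arrays numbered 1, and the 3 members with the most TA and the most CG steps. Named 6-mers are the 4 highest and 4 lowest held by at least 20 members. The members and these lists were chosen with earlier results of these data known. Alternatives covered the intensity column, an offset of 100, centring, quantile normalization, normexp (offset 50), the dimmest 25%, saturated spots, trend and robust options, a replicate block and each array left out. Deviations of same-numbered UV and non-UV arrays from their group means correlated by 0.00079 for CPD and -0.0032 for 6-4PP over all sequences. The numbers were therefore not treated as pairs in the main limma fit or the permutation tests. A rise given for array 1 or 2 is the UV array minus the non-UV array of that number. This pairing is by number alone.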

Additional observations from a re-analysis of the deposited data

Results flagged for a closer look

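With 2 arrays in a group no array could be judged as standing apart from its group. In the base-replacement series, 2 step contrasts moved in opposite directions with the 2 antibodies, each with both UV arrays on the same side of both non-UV arrays. AT relative to GC changed by 0.044 log2 units with CPD and by -0.029 with 6-4PP. TA relative to CA and TG changed by 0.017 with CPD and by -0.016 with 6-4PP. Both contrasts include changes in the flanking steps. The difference between the antibodies was not tested in either contrast. Same-numbered arrays of the antibodies share bright spots, and the part of this in the contrasts was not tested.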

How the results depend on the processing

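The direction of the members' rise depended on the reference. Centred on the array median, 0 members were higher with either antibody, while 534 were lower with CPD and 544 with 6-4PP (40.2% and 39.9% of all sequences were lower), and 387 had a larger rise with CPD (33.6% of all sequences). Quantile normalization gave 0 higher for both, with 40 and 62 lower, where 4.41% and 3.56% of all sequences were higher and 2.50% and 1.82% lower. Leaving out the dimmest 25% left 12 members with negative median changes, of which 0 (CPD) and 1 (6-4PP) rose. Of all sequences left, 95.5% and 97.3% were higher. This filter used the mean over all 8 arrays, UV arrays included, so it selected on the UV level itself. It cannot tell the direction of the members' change. The normexp correction gave 74 and 61 higher and 2 and 3 lower. Of all sequences, 78.9% and 87.5% were higher there, and 0.0262% and 0.0418% lower. Unadjusted intensities gave 252 higher for CPD (87.1% of all sequences). The random block of same-numbered arrays gave 17 members with different rises, when 14.4% of all sequences rose more with CPD and 44.7% more with 6-4PP. Leaving out an array of the same antibody gave 82 to 377 members higher for CPD and 155 to 430 for 6-4PP, and leaving out any of the 8 gave 0 to 6 for the difference. Leaving out an array of the other antibody changed the number of members called. The median rise stayed at 0.51 for CPD and 0.50 for 6-4PP. With the replicate block 376 members rose with CPD, 347 with 6-4PP and 0 differed, where 91.9% and 95.9% of all sequences were higher. In the difference, 6.39% of all sequences rose more with CPD and 27.4% more with 6-4PP. The slopes were the same with this block, since the block does not move a mean difference.

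Leaving out an array moved the median rise between 0.40 and 0.62 for CPD and between 0.38 and 0.65 for 6-4PP, the gap to probes with 1 step between -0.20 and -0.18 and between -0.26 and -0.24, and the gap to spots without sequence between -1.77 and -1.56 and between -3.24 and -3.07. The 1-step gap for 6-4PP was -0.27 on unadjusted intensities. Against the 160 unlabelled spots the change was 0.36 for CPD and 0.17 for 6-4PP. TA slopes ranged over left-out arrays from 0.00020 to 0.015 (CPD) and from -0.015 to -0.0030 (6-4PP), CG slopes from -0.031 to -0.017 and from -0.025 to -0.019. On linear intensity, divided by the array's member median and put on the log2 scale, the TA slopes were 0.061 and 0.039 and the 6-4PP CG slope -0.049. With AT steps as a term the 6-4PP CG slope was -0.011. In members with at least 5 spots the 6-4PP slopes were -0.027 for TA and -0.017 for CG. In the base-replacement series CG gave 0.0054 and 0.014. The cause of these shifts was not tested. The median over spots, the random block, the unlabelled spots, the spot minimum, the neighbourhood term and the base-replacement series were chosen after seeing the data. The signal over background limits these values, since the members stood only 239 (CPD, non-UV array 2) to 1247 (6-4PP, UV array 1) intensity units above the unlabelled spots.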
